A study of Mus musculus with 6 samples.

Results

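The genes that make, break down, carry and bind retinoic acid were examined in 2 sorted cell populations of the neonatal mouse prostate. The 9 genes were Aldh1a1, Aldh1a2, Aldh1a3, Cyp26a1, Cyp26b1, Rara, Rarb, Rarg and Crabp2, and their members on the array were all probes that the array design names for one of them. This gave 12 of the 55681 probes, for 9 of the 36163 gene names of the design. The cells came from prostates of male FVB/N Tg 11.5kb-GFP mice at 6 days of age, which carry a green fluorescent protein (GFP) transgene driven by the 11.5 kb promoter of s-SHIP, a short form of the phosphatase SHIP1. LSC cells, that is cells lacking the lineage antigens Ter119, CD31 and CD45 and bearing Sca-1 and CD49f, were sorted by flow cytometry into LSC GFP+ and LSC GFP-, with 3 samples of each and 1 array per sample. Both populations carried the transgene, neither was treated, and GFP reports activity of that promoter fragment rather than SHIP1 protein. Nothing in the labels says that the samples came from separate litters, so p-values measure the spread between these samples, and 3 arrays a population limit the precision.

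Retinoic acid is made from retinol in 2 oxidation steps, of which the second, from retinaldehyde, is carried out by the retinaldehyde dehydrogenases encoded by Aldh1a1, Aldh1a2 and Aldh1a3. Enzymes of the Cyp26 family break it down. It acts on the nuclear receptors RARα, RARβ and RARγ (Rara, Rarb, Rarg), which bind DNA with a retinoid X receptor at paired repeats of a short half-site, and Crabp2 carries it from the cytoplasm to those receptors. In the prostate, loss of vitamin A or of RARγ is known to turn the glandular epithelium into a squamous one.

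Rarb and Cyp26a1 are the textbook genes whose promoters carry such repeats, and their sites are shown because the same genes are measured below. The repeat was searched as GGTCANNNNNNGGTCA, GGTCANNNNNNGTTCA, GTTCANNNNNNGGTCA or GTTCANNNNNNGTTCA on both strands of the RefSeq promoter windows (GRCm38.p6), each running from 250 bases before to 50 bases after a gene's start. It was present in 0.247% of all 32851 windows, and in 73 of the 27025 genes with a window. Of the members, 7 had a window, Aldh1a3 and Crabp2 not among them, and 2 of these 7 held the repeat. These 2 are the textbook genes named above, so the count is no test. The shorter form, with 3 bases between the half-sites, lay in 0.399% of all windows and in none of the members', and no long match overlapped a short one. The half-sites are in capitals. The Rarb stretch is chr14:16575506-16575535 on the minus strand, with 36 bases between the repeat and the start of the gene. The Cyp26a1 stretch is chr19:37697769-37697798 on the plus strand, with 16 bases between, and its repeat reads on the opposite strand.
Rarb: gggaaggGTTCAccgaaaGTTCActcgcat
Cyp26a1: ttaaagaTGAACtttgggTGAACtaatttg
Of the 46 other genes of the retinoid lists described below that had a window, only Kat2b held the repeat.

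Among the synthesis genes, Aldh1a2 and Aldh1a1 shared the octamer ATGCAAAT upstream of their starts, a feature chosen after the sequences were seen. The octamer was present in 1.735% of all windows on either strand, and also in those of Aldh1a7 and Aldh8a1. The stretches are shown because Aldh1a2 was called between the populations and Aldh1a1 was not, and the octamer is in capitals. They are chr19:20601876-20601955 (plus strand), chr9:71215669-71215748 (plus strand) and chr19:20727569-20727648 (minus strand) of GRCm38.p6.
Aldh1a1: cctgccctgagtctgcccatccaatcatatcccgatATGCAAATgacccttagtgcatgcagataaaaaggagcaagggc
Aldh1a2: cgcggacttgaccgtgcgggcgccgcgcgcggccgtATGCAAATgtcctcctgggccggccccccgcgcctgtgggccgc
Aldh1a7: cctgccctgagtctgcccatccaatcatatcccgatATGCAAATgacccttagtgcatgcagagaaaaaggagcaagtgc
Aldh1a7 is a close copy of Aldh1a1, and the pair were identical at 94 of the 100 bases before the start and, with no gaps allowed, at 129 of the 250. How far the array's probes tell their transcripts apart was not tested.

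Each value below is the log2 of the processed signal minus the log2 of that array's 75th percentile, so 0 is the 75th percentile of the array. Values are compared between populations within a probe, since probes differ in how strongly they hybridise, and a difference is LSC GFP+ minus LSC GFP-. Where 3 values are listed they are replicates 1, 2 and 3 in that order. The test took in probes that at least 1 population showed well above background in each of its 3 samples, and a probe was called when its unadjusted p in the limma fit was under 0.05. Over the whole array, 2925 of 37005 tested probes were called, or 7.90%, of which 1250 (3.38%) were higher in LSC GFP+ and 1675 (4.53%) lower. With scaling by the array median the split was 1471 higher and 1299 lower. After Benjamini-Hochberg adjustment over all probes, 1 probe (0.00270%) passed 0.05, and it was no member. An exact permutation test of 3 against 3 cannot go below p = 0.1.

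Of the 12 member probes, 10 were tested, covering 8 of the 9 genes, and 2 were called. Both were lower in LSC GFP+, and both were synthesis enzymes, Aldh1a3 and Aldh1a2. Over genes, each at its brightest tested probe, that was 2 of 8, beside 7.68% of all 25514 genes tested (4.29% lower). The populations did not overlap at the same 2 genes, and 11.9% of all genes tested and 12.3% of all probes tested also had no overlap. The median difference of the 8 genes was -0.050, beside -0.0067 over all genes tested. None passed the adjusted threshold in limma. Since the members were chosen with earlier results of these data known, these counts are no test of the group.

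**Figure D1:**
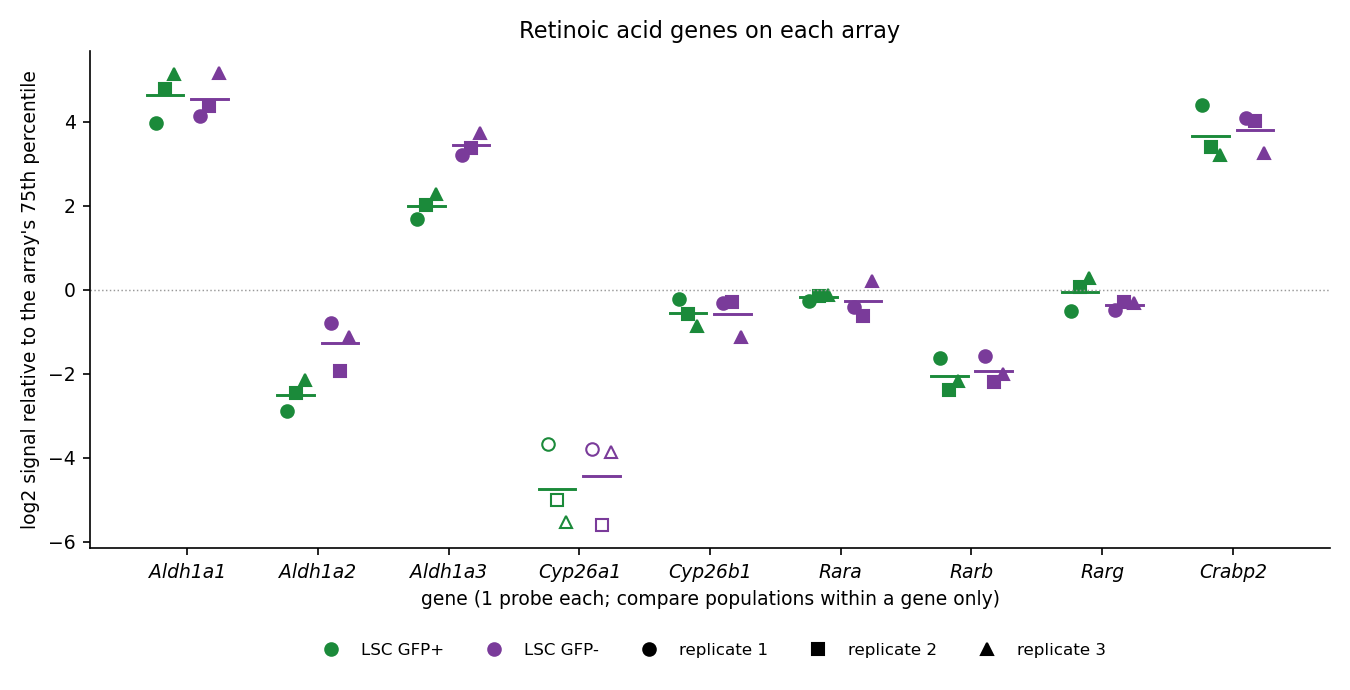
Log2 signal of each member gene relative to the array's 75th percentile (y axis), at 1 probe per gene (x axis), in the 3 LSC GFP+ arrays (green) and the 3 LSC GFP- arrays (purple). Point shapes are replicates, lines are means, and open points mark Cyp26a1, which was not tested; the populations are apart without overlap at Aldh1a2 and Aldh1a3, as they are at 11.9% of all genes tested.

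Aldh1a3 had the lowest p of the members. Its probe (chr7:73535785-73535844, minus strand, mm9) read 1.68, 2.01 and 2.29 in LSC GFP+ and 3.20, 3.39 and 3.73 in LSC GFP-. Every LSC GFP+ array was below every LSC GFP- array, with a gap between the populations wider than the spread within either. The means were 1.99 ± 0.30 and 3.44 ± 0.27 (SD, n = 3 each). The difference was -1.44 with a standard error of 0.24 and a 95% confidence interval of -2.00 to -0.89, a 2.72-fold lower signal (limma, unadjusted p = 0.000351, adjusted p = 0.107). Between arrays of the same replicate number the differences were -1.51, -1.38 and -1.44. These 3 values lay closer together than the levels within either population did.

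Aldh1a2 was the other member called. Its probe (chr9:71143931-71143990, plus strand, mm9) read -2.90, -2.45 and -2.16 in LSC GFP+ and -0.79, -1.93 and -1.12 in LSC GFP-. The populations did not overlap, but LSC GFP- replicate 2 lay near the highest LSC GFP+ array. The means were -2.50 ± 0.37 and -1.28 ± 0.59 (SD, n = 3 each). The difference was -1.23 with a standard error of 0.34 and a 95% confidence interval of -2.00 to -0.45, a 2.34-fold lower signal (limma, unadjusted p = 0.00664, adjusted p = 0.298). By replicate number it was -2.11, -0.52 and -1.04, a wider range than that of Aldh1a3. With the normexp background correction the difference shrank to -0.80 and the probe was still called (limma, unadjusted p = 0.00417, adjusted p = 0.239).

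Aldh1a1, the third retinaldehyde dehydrogenase, was not called. Its probe (chr19:20717764-20717823, plus strand, mm9) read 3.96, 4.78 and 5.15 in LSC GFP+ and 4.14, 4.37 and 5.15 in LSC GFP-. The ranges lay on top of each other. The difference was 0.078, with a 95% confidence interval of -0.79 to 0.95 (limma, unadjusted p = 0.841, adjusted p = 0.996), and its sign turned when single arrays were left out.

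The 3 enzymes were also compared as log2 ratios within each array, in which any scaling of the array drops out. The Aldh1a3 to Aldh1a1 ratio was 2.87-fold lower in LSC GFP+ and the Aldh1a2 to Aldh1a1 ratio 2.47-fold lower, both without overlap between the populations (two-sided exact permutation p = 0.1 each, the lowest possible; 0.133 after adjustment over the 4 ratios compared). The Aldh1a3 to Aldh1a2 ratio differed by -0.22 on the log2 scale, and the populations overlapped (exact permutation p = 0.7, adjusted 0.7). The ratios were chosen with the calls of the single genes known, and at this design their p cannot pass 0.05.

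**Figure D2:**
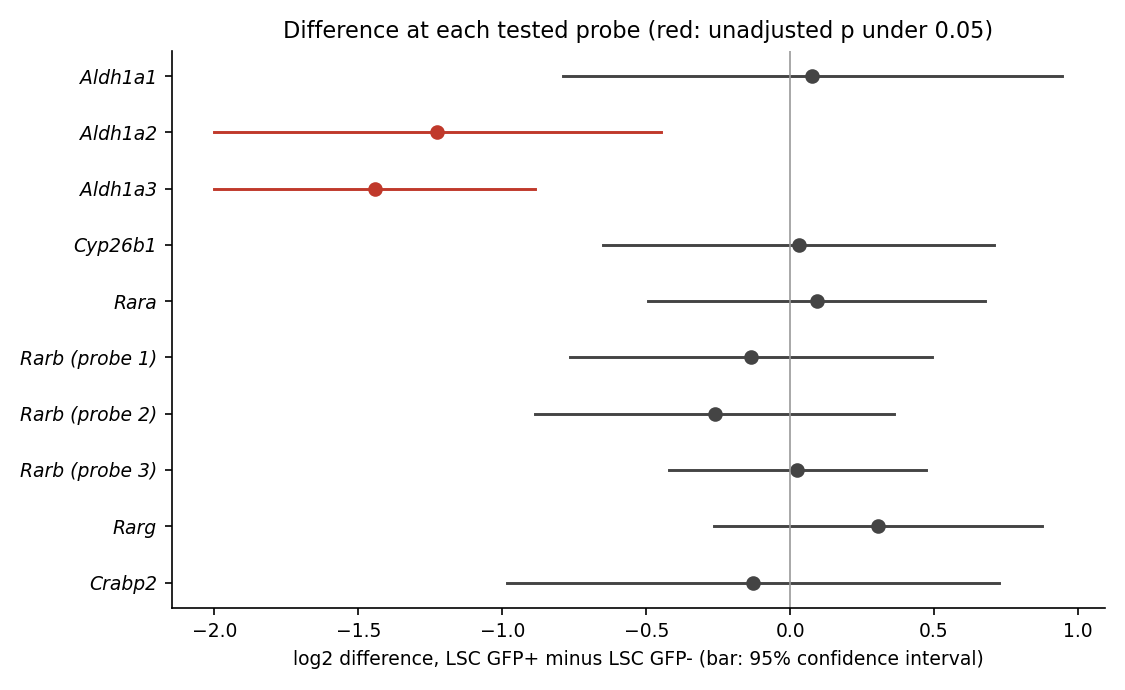
Log2 difference between LSC GFP+ and LSC GFP- (x axis; points) with its 95% confidence interval (bars) at each of the 10 tested member probes (y axis). The intervals of Aldh1a2 and Aldh1a3 (red) lie below 0, and the other 8 cross 0; probes of Rarb are numbered from the brightest.

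Of the breakdown enzymes, Cyp26b1 was measured on every array. Its probe (chr6:84521952-84522011, minus strand, mm9) read -0.22, -0.57 and -0.87 in LSC GFP+ and -0.33, -0.29 and -1.13 in LSC GFP-. The populations overlapped, and the difference was 0.029 with a 95% confidence interval of -0.65 to 0.71 (limma, unadjusted p = 0.923, adjusted p = 0.996). Cyp26a1, a breakdown enzyme that retinoic acid itself induces, was near background. Its only probe (chr19:37775566-37775625, plus strand, mm9) was well above background on 1 LSC GFP+ array and 1 LSC GFP- array. It read -3.68, -5.01 and -5.54 in LSC GFP+ and -3.80, -5.61 and -3.86 in LSC GFP-, and it was not tested.

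The 3 receptor genes were not called at any of their 5 tested probes. Rara at its bright probe (chr11:98835350-98835409, plus strand, mm9) read -0.26, -0.15 and -0.14 in LSC GFP+ and -0.40, -0.64 and 0.22 in LSC GFP-. LSC GFP- held both the lowest and the highest array, and the difference was 0.092 (95% confidence interval -0.49 to 0.68; limma, unadjusted p = 0.727, adjusted p = 0.996). A second Rara probe (chr11:98836197-98836256) was well above background on 0 of 6 arrays and was not tested.

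Rarb, the receptor gene with the repeat shown above, had 3 probes, all on the minus strand of chromosome 14. The brightest (chr14:17263367-17263426, mm9) read -1.62, -2.38 and -2.18 in LSC GFP+ and -1.58, -2.20 and -2.00 in LSC GFP-. The populations overlapped almost fully, with a difference of -0.14 (95% confidence interval -0.77 to 0.50; limma, unadjusted p = 0.629, adjusted p = 0.996). The other 2 probes differed by -0.26 and 0.025, and neither was called.

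Rarg, the receptor most tied to squamous change of the prostate, had 1 probe (chr15:102065371-102065430, minus strand, mm9). It read -0.51, 0.07 and 0.28 in LSC GFP+ and -0.48, -0.29 and -0.31 in LSC GFP-. Replicates 2 and 3 of LSC GFP+ lay above all LSC GFP- arrays and replicate 1 lay below them. The difference was 0.31 with a 95% confidence interval of -0.26 to 0.88 (limma, unadjusted p = 0.251, adjusted p = 0.957). It was 0.53 without LSC GFP+ replicate 1, and was then called (limma, unadjusted p = 0.0354), so this array decides the call. That fit called more probes over the whole array, 4049 of 37005 against 2925 in the reported fit.

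Crabp2, the carrier, was measured at 1 probe (chr3:87757207-87757266, plus strand, mm9). It read 4.40, 3.39 and 3.20 in LSC GFP+ and 4.09, 4.03 and 3.25 in LSC GFP-. The populations overlapped, with a difference of -0.13 (95% confidence interval -0.98 to 0.73; limma, unadjusted p = 0.737, adjusted p = 0.996). The intervals of the members not called reached 0.95 at Aldh1a1 and -0.98 at Crabp2, so the missing calls do not show equal levels. Whether a probe lies in a coding exon or an untranslated region was not analysed here.

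The other genes of the pathway were taken as 3 lists, each gene at its brightest tested probe. These lists were chosen with earlier results of these data known, so the shares called are no test of the lists. In the list of other retinoid metabolism and transport genes 24 of 31 were tested. Of these, 3 were called higher in LSC GFP+ and 2 lower, and the median difference was 0.025. The called genes were 20.8% of those tested, beside 7.68% of all genes tested (3.39% higher, 4.29% lower). They include Rbp4, which entered the test only through LSC GFP-. The 3 higher were Fabp5, which carries fatty acids and also retinoic acid, Aldh1a7, the copy of Aldh1a1, and Rdh10, which makes retinaldehyde from retinol. Their differences were 0.74, 0.62 and 0.59 with standard errors of 0.27, 0.27 and 0.25 (limma, adjusted p = 0.490, 0.621 and 0.602).

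Fabp5 read 4.18, 4.23 and 4.70 in LSC GFP+ and 3.71, 3.18 and 3.99 in LSC GFP-, without overlap. Rdh10 read -0.03, -0.23 and -0.55 in LSC GFP+ and -1.08, -0.48 and -1.02 in LSC GFP-, with an overlap. Rdh10 and Aldh1a7 each lost the call under 8 of 18 alternative settings, so these calls depend on the processing. Aldh1a7 read 1.99, 2.35 and 2.80 in LSC GFP+ and 1.60, 1.60 and 2.07 in LSC GFP-, also with an overlap. Within arrays its ratio to Aldh1a1 was 1.46-fold higher in LSC GFP+, without overlap (exact permutation p = 0.1).

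The 2 genes called lower were Crabp1, a second retinoic acid carrier, and Rbp4, the retinol carrier of blood. Crabp1 read -2.35, -2.96 and -2.87 in LSC GFP+ and -1.78, -2.21 and -1.26 in LSC GFP-. The populations did not overlap, and the difference was -0.98 with a standard error of 0.29 (limma, adjusted p = 0.351). Rbp4 was not well above background on any LSC GFP+ array but was on all 3 LSC GFP- arrays. It therefore entered the test only through the population where it was high. Its call and p (limma, adjusted p = 0.0984) are no support for a difference. As processed here its bound was 2.05-fold lower in LSC GFP+. The bound sets the LSC GFP- mean against a floor on each LSC GFP+ array. The floor was the dimmest signal still above background, or the probe's own signal where higher. With the normexp correction, which adds an offset of 50, the difference of Rbp4 was -0.59 and that of Crabp1 -0.60. That of Rbp4 was smaller than its bound, so the bound holds for 1 processing only. Adh1, an alcohol dehydrogenase that also oxidises retinol, differed by -0.95 and was not called (limma, unadjusted p = 0.0569, adjusted p = 0.654).

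**Figure D3:**
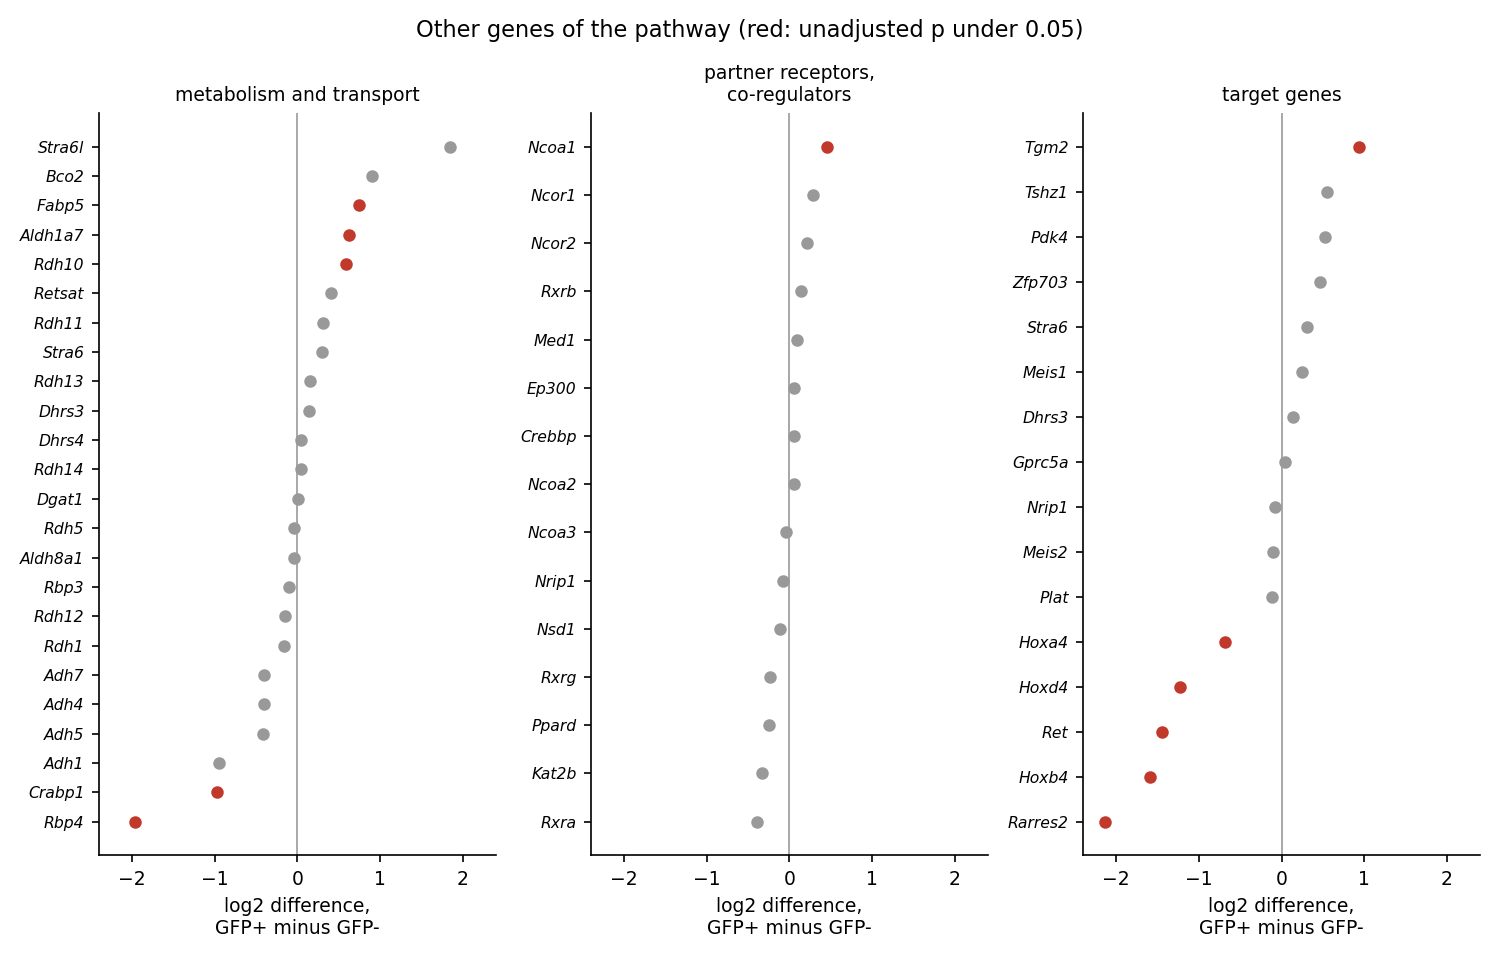
Log2 difference between LSC GFP+ and LSC GFP- (x axis) for each tested gene (y axis) of the 3 retinoid lists, sorted by size within a list, with genes called at unadjusted p under 0.05 in red. Called genes lie on both sides in the metabolism and target lists, and 1 gene, Ncoa1, is called among the partner receptors and co-regulators; Dhrs3, Stra6 and Nrip1 appear in 2 lists.

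Among the partner receptors and co-regulators all 15 genes were tested, and the median difference was 0.051. Of these, 1 (6.67%) was called higher and 0 lower, beside 7.68% called of all genes tested. The gene was Ncoa1, a coactivator of nuclear receptors, with a difference of 0.45, a standard error of 0.19 and an adjusted p of 0.603 in limma. It lost the call under 10 of 18 alternative settings, and its other 2 probes differed by 0.069 and 0.062 and were not called. Of the retinoid X receptors, which pair with the RARs, Rxrb differed by 0.14 and Rxrg by -0.23, with overlap. Rxra read -0.94, -1.02 and -1.26 in LSC GFP+ and -0.82, -0.71 and -0.53 in LSC GFP-. The Rxra values did not overlap, yet the difference of -0.39 was not called by limma (unadjusted p = 0.0843, adjusted p = 0.740), and a second Rxra probe differed by -0.23 with overlap.

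In the list of retinoic acid target genes 16 of 22 were tested, 1 was called higher in LSC GFP+ and 5 lower, and the median difference was -0.019. The 6 called genes were 37.5% of those tested, beside 7.68% of all genes tested (3.39% higher, 4.29% lower). They include Ret, which entered the test only through LSC GFP-. As the list was chosen with earlier results of these data known, this share is no test of it. Higher was Tgm2, a transglutaminase induced by retinoic acid in many cells. Tgm2 read 3.51, 3.83 and 3.80 in LSC GFP+ and 2.75, 2.70 and 2.88 in LSC GFP-, without overlap. Its difference was 0.93 with a standard error of 0.19 (limma, adjusted p = 0.155), and a second Tgm2 probe gave 1.05.

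The 5 genes called lower were Rarres2, Hoxb4, Hoxd4, Hoxa4 and Ret. Rarres2, which encodes the secreted protein chemerin, read -1.66, -2.12 and -1.10 in LSC GFP+ and 0.94, -0.48 and 1.06 in LSC GFP-. The populations did not overlap and the difference was -2.13 with a standard error of 0.45 (limma, adjusted p = 0.163). Hoxb4, Hoxd4 and Hoxa4 are homeobox genes of the fourth paralogue group, known as direct retinoic acid targets in the embryo.

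Hoxb4 read -1.68, -1.37 and -1.50 in LSC GFP+ and -0.24, 0.50 and -0.02 in LSC GFP-, a difference of -1.59 with a standard error of 0.24 (limma, adjusted p = 0.0984). Hoxd4 differed by -1.22 with a standard error of 0.28 (limma, adjusted p = 0.192) and Hoxa4 by -0.68 with a standard error of 0.27 (limma, adjusted p = 0.572). None of the 3 overlapped between the populations, where 11.9% of all genes tested did not, and Hoxa4 lost the call under 12 of 18 alternative settings. Ret, a receptor tyrosine kinase, was not well above background on any LSC GFP+ array. Its call and p (limma, adjusted p = 0.350) are no support for a difference, for the reason given for Rbp4. As processed here its bound was 2.0-fold lower in LSC GFP+. With the normexp correction the differences of Ret, Hoxd4 and Hoxa4 were -0.44, -0.69 and -0.26, and that of Ret was smaller than its bound. Dhrs3 and Stra6, which retinoic acid induces in many tissues, differed by 0.14 and 0.30 and were not called. Of the members that are textbook targets, Rarb was not called and Cyp26a1 was not tested, and of the other genes not tested Hoxb1, Stra8 and Cdx1 are targets known from the embryo or germ line.

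The sorted populations differed in markers of other cell types, and their part in the results above was not tested. In such sorted bulk samples fewer cells of a type and less RNA per cell cannot be told apart. Krt5, Krt14 and Trp63, which define basal cells, were well above background on every array at their brightest probe. Of 9 tested basal markers 6 were called higher in LSC GFP+ and 0 lower, including Krt5 (0.70) and Krt14 (1.18). Over all genes tested 7.68% were called, 3.39% higher and 4.29% lower, the share to set beside this and the marker counts below. Sca-1 (Ly6a) and CD49f (Itga6), the sort's own antigens, differed by -0.36 and 0.25 and were not called, nor were Cd24a (-0.18), Pecam1 (-0.55) and Ptprc (-0.054), and Trp63 at its brightest probe differed by 0.11. Of the other 2 tested Trp63 probes, 1 was called higher (0.62) and 1 differed by -0.73 and was not called. Another Trp63 probe was well above background on 1 LSC GFP+ array alone and was not tested. Inpp5d, the gene of SHIP1, was well above background on 0 of 6 arrays at its probe.

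Smooth muscle markers were called lower in LSC GFP+ for 6 of 7 tested genes, and their summed signal was 7.03 to 10.6 times the array's 75th percentile there against 20.0 to 38.5 in LSC GFP-. Of 10 tested stromal markers 5 were called lower and 2, Dcn and Fbln1, higher, with sums of 25.3 to 32.2 against 24.8 to 66.3. Of 7 tested seminal vesicle and Wolffian duct markers 3 were called lower and 0 higher, with sums of 14.1 to 21.0 against 19.5 to 31.8. All 7 differences were below 0, with a median of -1.28. Gata3, which differed by -0.16, was the largest term of these sums on every array. Only the smooth muscle sums were apart between the populations among these 3 lists. Of the lists' defining genes, Lmod1 and Svs3a were not well above background on any array, and Postn was on 2 LSC GFP- arrays alone.

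Array by array, Aldh1a2 was highest in LSC GFP- replicates 1 and 3, the arrays with the highest stromal sums, 66.3 and 40.2. In LSC GFP- replicate 2, where Aldh1a2 read -1.93, the stromal sum was 24.8, below all LSC GFP+ arrays, and the smooth muscle sum was 20.0, above all of them. That stromal sum adds Dcn and Fbln1, which were higher in LSC GFP+. In the same array Col1a1, Col1a2, Col3a1, Lum and Pdgfra read 0.61, 3.09, 2.44, -2.43 and -2.00, each above every LSC GFP+ array. Dcn, Fbln1 and Vim read 2.02, 1.61 and -0.15 there, each below every LSC GFP+ array. Pdgfrb (-3.83) and Thy1 (-0.24) lay within the LSC GFP+ range. Aldh1a3 was instead highest in replicate 3 of each population, the arrays with the highest luminal sums, 211 in LSC GFP+ and 221 in LSC GFP-, and the highest seminal vesicle and Wolffian duct sums, 21.0 and 31.8. Basal sums were also highest there, 245 and 181, and in LSC GFP+ so was the stromal sum, 32.2. The luminal sums overlapped between the populations, at 148 to 211 and 156 to 221, with 2 of 8 luminal markers called higher and 1 lower. Of the remaining lists, 1 endothelial marker of 6 was called lower and 0 higher, and no immune marker of 7 was called. No glial or neuronal marker of 6 was called, with all 6 differences below 0 and a median of -0.63. LSC GFP- replicate 3, where Aldh1a3 read 3.73, had the highest Pecam1 (-1.07), Cldn5 (-1.75) and Esam (-1.11) of all arrays. Among untested probes it had the highest Cdh5 (-2.24), Emcn (-3.18) and dim Kdr probe (-2.51). Vwf, Tek and the bright Kdr probe were not highest there. The part of these cells was not tested.

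**Figure D4:**
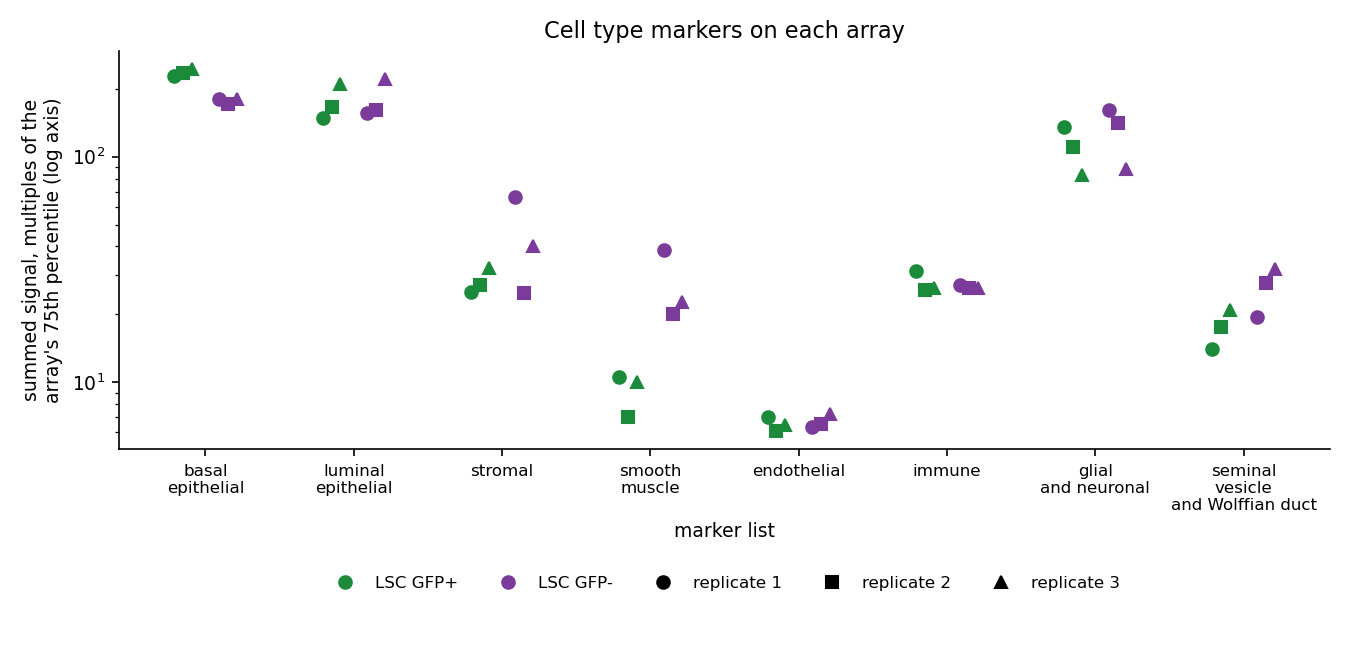
Summed signal of each marker list (y axis, log scale, in multiples of the array's 75th percentile) in the 3 LSC GFP+ arrays (green) and the 3 LSC GFP- arrays (purple), with point shapes for replicates. Basal sums are higher and smooth muscle sums lower in LSC GFP+ without overlap, and stromal, luminal and seminal vesicle sums overlap. Single bright probes can make the largest term of a sum. Examples are Trp63 (difference 0.11), Gata3 (-0.16), Elavl4 (-0.10) and Kdr (0.021), in the basal, seminal vesicle, glial and endothelial lists.

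The genes whose mean-centred values over the 6 arrays lay closest to those of a member were found among 23694 genes by the root mean square difference. For Aldh1a3 they were Lypd6, 2700062C07Rik and Padi2, with differences from its pattern of 0.10, 0.10 and 0.11 on the log2 scale. For Aldh1a2 they were Ppp2r2c, Cyp1b1 and Serping1, each at 0.18, so no gene followed Aldh1a2 as closely as these 3 followed Aldh1a3. Cyp1b1 encodes a cytochrome P450 that can also oxidise retinol, and Serping1 a complement inhibitor. For Rarg the closest named genes were Tbccd1 and Ap5m1, at 0.055 and 0.058. Such closeness is a description over 6 arrays that share a contrast.

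**Figure D5:**
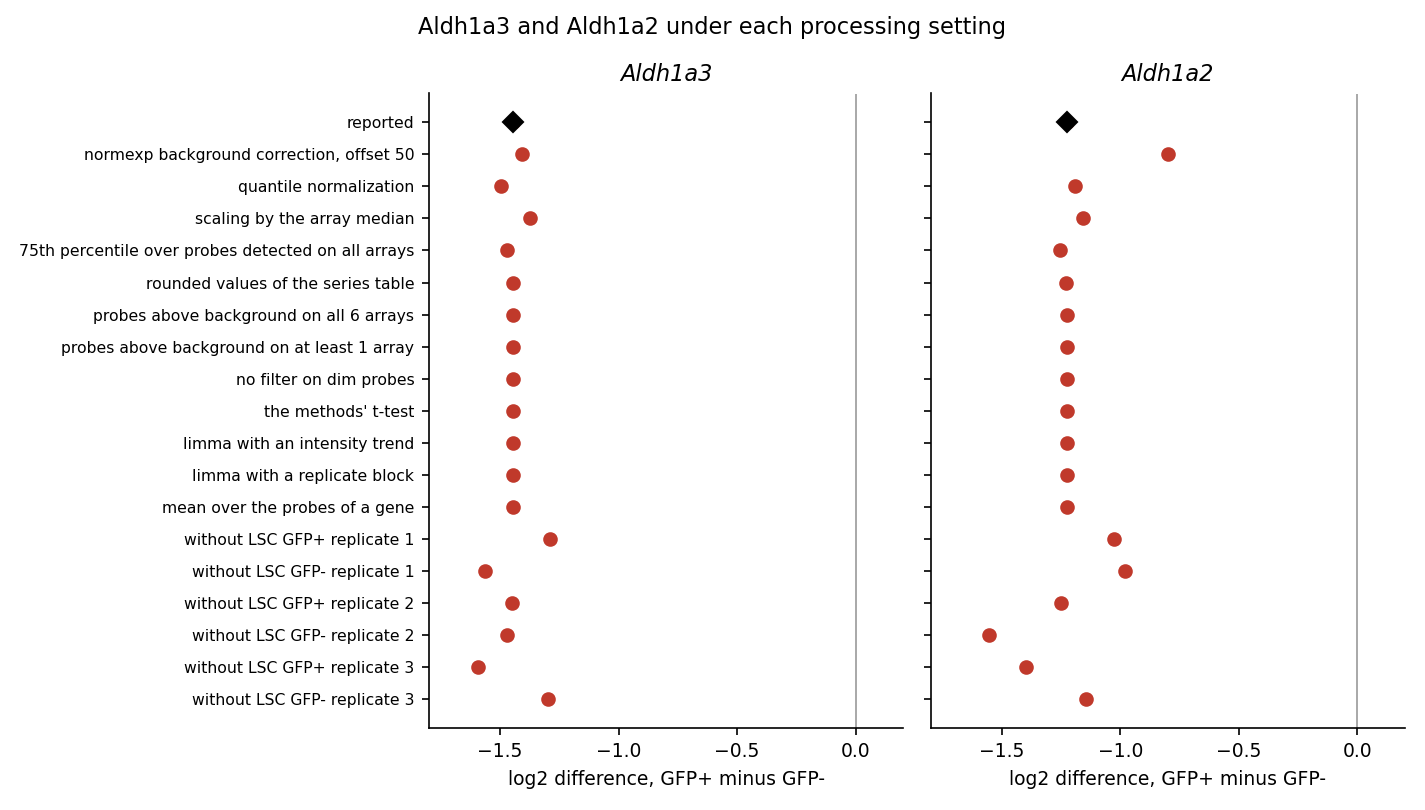
Log2 difference between LSC GFP+ and LSC GFP- (x axis) of Aldh1a3 and Aldh1a2 as reported (black) and under each of 18 alternative settings (red; y axis). All values lie below 0, from -1.59 to -1.29 for Aldh1a3 and from -1.55 to -0.80 for Aldh1a2.

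Aldh1a3 and Aldh1a2 were called lower in LSC GFP+ under all 18 alternative settings, which changed the background correction, the scaling, the filter, the test or the arrays used. The unadjusted p of Aldh1a3 ranged from 0.0000667 to 0.00354 and that of Aldh1a2 from 0.00112 to 0.0382 over these fits, and the adjusted p from 0.0598 to 0.444 and from 0.200 to 0.704.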

How the data were processed

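Single-colour Agilent SurePrint G3 mouse arrays were hybridised with amplified cDNA of 3 LSC GFP+ and 3 LSC GFP- samples, all on 1 slide and in 1 scan day. The authors deposited background-corrected signal intensity per spot from Feature Extraction 11.0.1.1, per the file headers, and a series table of the same intensity rounded to 3 digits. Outlier spots were left out, spots of a probe averaged, and log2 intensity minus the 75th percentile of each array computed. limma 3.58.1 in R 4.3.3 compared the populations over 37005 probes, two-sided, with Benjamini-Hochberg adjustment and no block. Same-numbered samples deviated together (correlations 0.43, 0.28 and 0.67), against -0.55 to 0.22 between samples of unlike number. The differences by replicate number treat the numbers as pairs. The reported fit does not, and a replicate block was an alternative. Scripts were tested on simulated data. Probe positions are those of the design (mm9). The named genes were all member probes, called and textbook genes of the retinoid lists, fixed markers, and for the 3 members of lowest p the 3 most alike genes. Members and lists were chosen with earlier results of these data known. Genes withheld from the lists are not reported here and are in none of the list counts.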

Additional observations from a re-analysis of the deposited data

How the results depend on the processing

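The counts of member probes and of member genes called stayed at 2 under every alternative except without LSC GFP+ replicate 1, where Rarg made 3. All probes called rose from 2925 to 5480 with the replicate block (2495 higher, 2985 lower, 0 adjusted), which changed no member's call; the methods' t-test called 2798 (1579 higher, 1219 lower) and quantile normalization 3274 (1668 higher, 1606 lower). Leaving out single arrays gave 2077 to 4049, the most without LSC GFP+ replicate 1. The 5 metabolism and transport genes called became 2 with the methods' t-test, 3 with the filter at 1 array and 8 with quantile normalization, and 3 to 6 when single arrays were left out. The 1 partner receptor or co-regulator called became 0 with normexp, with the percentile over probes detected on all arrays, with the filter at 1 array, with no filter and with the mean over a gene's probes, 2 with the t-test, and 0 to 1 when single arrays were left out; the cause was not tested. Signs turned only when single arrays were left out, at genes not called: Aldh1a1 ran from -0.18 to 0.41, Cyp26b1 from -0.24 to 0.19, Rara from -0.090 to 0.34, Rarb from -0.36 to 0.038, Crabp2 from -0.50 to 0.10 and Dhrs3 from -0.0041 to 0.29. Cyp26a1 differed by -0.32 where looser filters admitted it (limma, unadjusted p = 0.641 and 0.638). The methods' t-test passed no member after adjustment and called Rxra. Fabp5 lost its call under 3 settings and Ret under 1, the t-test. Probes near background, such as those of Cyp26a1, Rbp4 and Ret, give bounds that depend on the processing, or no comparison.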
